A study of Homo sapiens with 6 samples.

Results

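Genes of glucose and lactate transport, of glycolysis and of the hypoxia response were examined in 6 RNA sequencing libraries labelled SW480, a line grown from a human colorectal adenocarcinoma. The 40 genes were taken by symbol from a list of transporters, glycolytic enzymes and targets of the hypoxia-inducible factors (HIF), and all 40 were found among the 58735 genes of the table. Titles and genotype labels put 3 libraries under DDX39B overexpression and 3 under control, the control genotype being given as WT. All 6 cultures are described with the same growth protocol, Leibovitz's L-15 medium with serum and without added CO2, and the labels name no hypoxia or glucose treatment. How DDX39B was overexpressed, whether the cells were a clone or a pool, and whether replicates were separate cultures is not given in the sources used here, so p-values measure the spread between these libraries, which may be technical.

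Glycolysis splits glucose into pyruvate in the cytosol, and lactate dehydrogenase and the monocarboxylate transporters turn pyruvate into lactate and carry it out of the cell. Most steps are catalysed by families of related enzymes whose members differ between tissues. In low oxygen the prolyl hydroxylases EGLN1 to EGLN3 stop marking the HIF alpha subunits for destruction, so HIF pairs with ARNT and switches on transporters, glycolytic enzymes, angiogenic factors and mitophagy receptors. This control acts on HIF protein, which RNA levels do not measure. L-15 medium supplies galactose and pyruvate in place of glucose, and colorectal tumour cells are known for high glycolytic rates.

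The gene named by the labels went against them. DDX39B (ENSG00000198563), an RNA helicase gene of splicing and mRNA export, was read at 15.02, 13.87 and 14.03 FPKM where the label says overexpression and at 39.3, 34.6 and 41.9 FPKM where it says control. FPKM is a level scaled for gene length and library size. The groups did not overlap, and the libraries labelled overexpression were the low ones (limma log2 fold change -1.37 with an SE of 0.079 and an adjusted p = 6.93e-06). The names overexpression-labelled and control-labelled are used from here on, and each direction follows the labels as given. Depth was 16963075 to 17463697 reads per library. Of 13 colorectal epithelial markers, 8 were higher under the overexpression label (37.5% of all tested genes were) and 5 were too low to test, among them KRT20 at 0.061 and 0.866 FPKM on average. The 13 summed to 1970 to 2000 FPKM and to 358 to 431 FPKM under the control label, where KRT8 (179 FPKM) and KRT18 (202 FPKM) made up most of the sum. EPCAM stood at 171 and 2.72 FPKM, CDH1 at 10.99 and 0.284 FPKM and KRT19 at 500.2 and 0.251 FPKM. CDX1 had 0 reads in all libraries. CDX2 had 1059 reads under the overexpression label and 0 under the control label, and GPA33 had 18 and 0. CDH17 (0.168 and 0.072 FPKM) and LGALS4 (0.156 and 0.030 FPKM) were near 0 in both groups. Several defining markers of the labelled cell type were thus at or near 0 under the control label, some of them in both groups. Whether both groups are the same line was not tested. Endothelial markers summed to 1.06 to 1.48 and 36.2 to 50.7 FPKM, with ESAM making up most of the latter. Fibroblast markers summed to 1.54 to 1.67 and 4.37 to 8.28 FPKM, and leukocyte markers to at most 1.31 FPKM. KDR, PDGFRA, CD3D and MS4A1 had 0 reads throughout. The part of these markers in the results below was not tested.

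HIF with ARNT binds a short core, ACGTG or GCGTG, and promoter sequences are shown here for genes that were higher, lower and not past the threshold, so that the values below can be read beside them. RefSeq promoters (build GRCh38.p14) matched 35 of the 40 genes, and only the first listed start of each gene was used. The 250 bases before that start were searched for both cores on both strands, so that CACGTG counts on each. These bases can lie inside the gene as annotated in the table, as for SLC2A1 and ANKRD37. Other starts of a gene were not searched. ACGTG was present in 14 of the 35 (40%) and in 18.7% of all 27305 promoters, and GCGTG in 14 (40%) and in 31.9%. Of the matched genes, either core was present in 4 of 8 that were higher and in 14 of 20 that were lower, beside 43.1% of all promoters. Capitals mark the cores in the following 6 sequences, each read 5′ to 3′ on its gene's strand. The promoters of SLC2A1 at chr1:42958869-42959118 (minus strand) and ANKRD37 at chr4:185396591-185396840 (plus strand) belong to genes that were higher.
SLC2A1: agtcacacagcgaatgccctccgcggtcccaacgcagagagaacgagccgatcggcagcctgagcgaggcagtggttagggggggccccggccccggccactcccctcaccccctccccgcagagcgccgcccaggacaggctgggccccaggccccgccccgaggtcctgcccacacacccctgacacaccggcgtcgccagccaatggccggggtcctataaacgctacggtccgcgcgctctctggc
ANKRD37: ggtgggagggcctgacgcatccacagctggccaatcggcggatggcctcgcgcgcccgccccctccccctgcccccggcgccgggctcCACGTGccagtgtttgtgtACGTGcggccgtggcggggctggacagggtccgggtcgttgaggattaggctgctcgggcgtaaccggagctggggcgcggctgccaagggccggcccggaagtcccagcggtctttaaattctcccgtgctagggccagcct
Those of BNIP3 at chr10:131981924-131982173 (minus strand) and ALDOC at chr17:28576896-28577145 (minus strand) belong to genes that were lower.
BNIP3: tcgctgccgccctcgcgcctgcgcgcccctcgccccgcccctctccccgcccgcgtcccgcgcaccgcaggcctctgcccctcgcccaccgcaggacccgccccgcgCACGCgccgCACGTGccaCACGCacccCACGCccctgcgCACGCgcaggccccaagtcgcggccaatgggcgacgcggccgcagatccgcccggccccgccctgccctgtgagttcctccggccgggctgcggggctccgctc
ALDOC: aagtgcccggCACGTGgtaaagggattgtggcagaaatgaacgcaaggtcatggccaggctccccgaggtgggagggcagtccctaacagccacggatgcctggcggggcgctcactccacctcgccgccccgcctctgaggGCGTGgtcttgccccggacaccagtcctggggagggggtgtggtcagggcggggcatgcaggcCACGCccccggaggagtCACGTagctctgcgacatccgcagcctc
Those of LDHA at chr11:18394313-18394562 (plus strand) and CA9 at chr9:35673678-35673927 (plus strand) belong to genes that did not pass the threshold.
LDHA: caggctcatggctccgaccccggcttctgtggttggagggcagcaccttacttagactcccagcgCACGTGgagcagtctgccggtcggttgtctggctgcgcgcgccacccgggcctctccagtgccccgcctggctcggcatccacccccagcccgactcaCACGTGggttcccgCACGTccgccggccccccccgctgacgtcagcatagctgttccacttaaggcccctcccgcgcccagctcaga
CA9: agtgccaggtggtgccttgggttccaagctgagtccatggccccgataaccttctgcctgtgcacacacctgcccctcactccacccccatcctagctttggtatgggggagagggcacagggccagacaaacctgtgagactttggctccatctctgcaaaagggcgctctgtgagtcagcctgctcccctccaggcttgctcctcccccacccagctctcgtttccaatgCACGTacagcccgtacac
Matches to the core were thus found in promoters of all 3 outcomes, with 6 in BNIP3, 5 in ALDOC, 5 in LDHA, 3 in ANKRD37, 1 in CA9 and 0 in SLC2A1. Of the matched genes, BNIP3 and ALDOC held the most matches among the lower ones. ANKRD37 held the most among the higher ones and LDHA among those not past the threshold. The printed sequences are therefore not typical of their outcomes. A match is a run of letters and not a measured binding site.

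Across the list, 39 genes had a mean of at least 1 FPKM and were tested with limma on log2(FPKM + 1), with p-values adjusted over all 13972 genes tested. At an adjusted p of 0.05, 31 of the 39 passed, beside 76.8% of all genes. Higher under the overexpression label were 10 of them (37.5% of all genes were higher), and lower were 21 (39.3% of all genes were lower). The groups did not overlap for 31 of the 39, beside 80.1% of all genes. Below, a mean is given with its SD over the 3 libraries of a group, and paired values give the overexpression-labelled group first. The median log2 fold change was -0.40 over the list and -0.03 over all genes tested, and the median size of the change was 0.74 and 0.62. A log2 fold change of at least 1 in size was seen for 3 higher and 12 lower genes that passed. Among all 13972 genes it was seen for 2213 higher and 2145 lower ones that passed, 31.2% in both directions together. Most genes thus differed between the groups, on the list as in the table at large. As the libraries are bulk RNA, fewer cells of a type and less RNA per cell cannot be told apart.

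**Figure D1:**
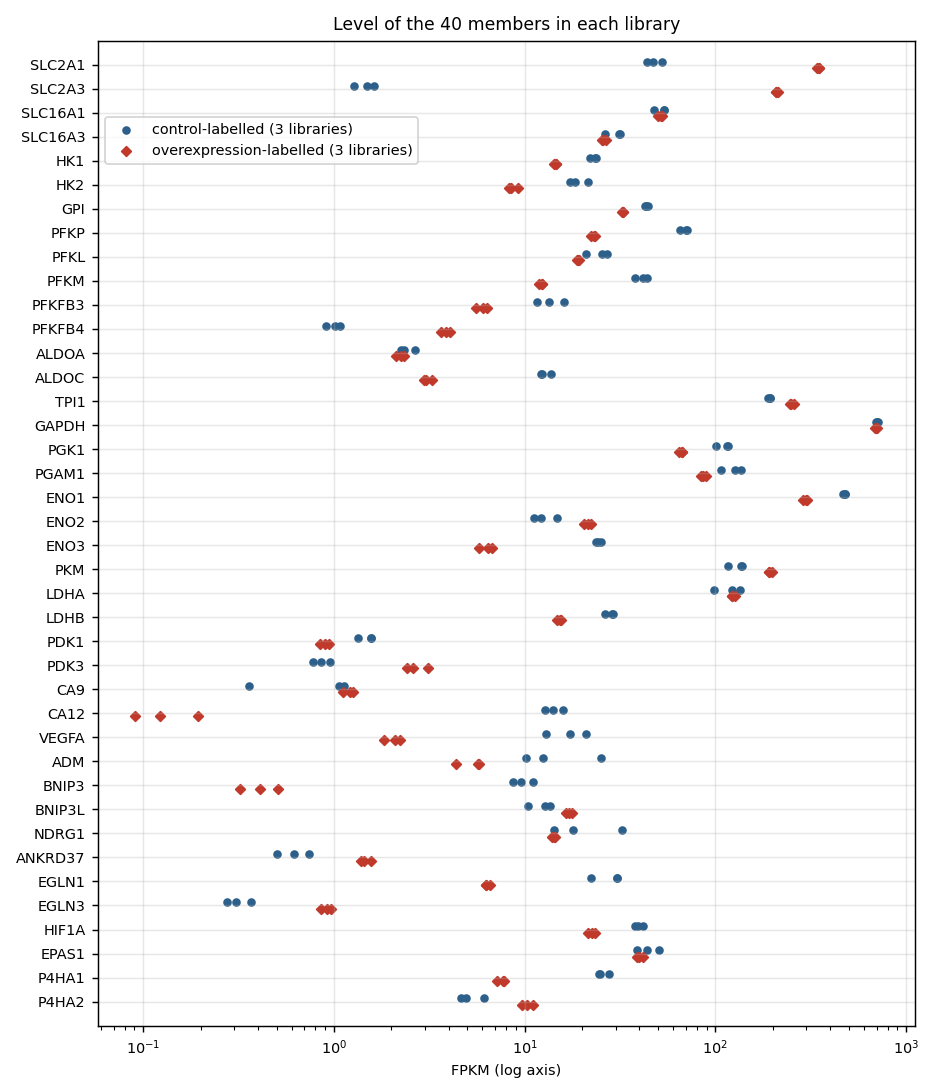
FPKM of each of the 40 genes on a log axis, with circles for the 3 control-labelled and diamonds for the 3 overexpression-labelled libraries. SLC2A3 lies near 210 FPKM in one group and under 2 FPKM in the other, while GAPDH and SLC16A1 lie on top of each other.

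**Figure D2:**
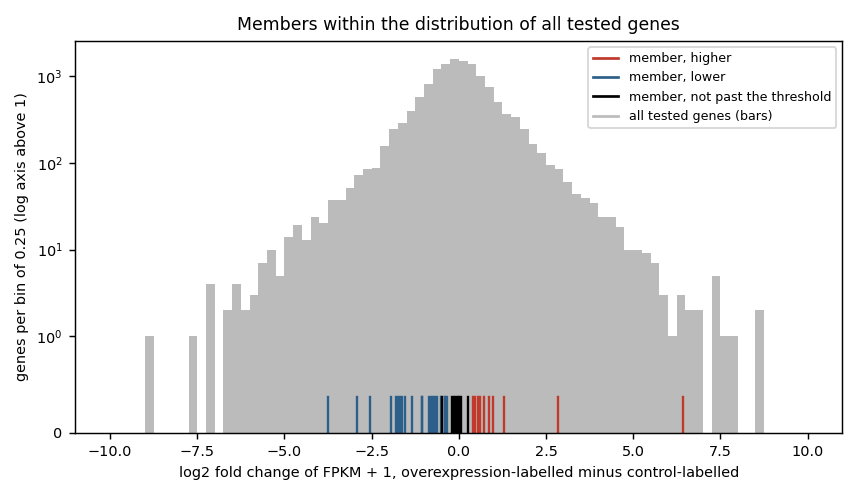
Number of tested genes per bin of log2 fold change (grey bars, log axis above 1), with a tick for each of the 39 tested members along the bottom. SLC2A3 is the tick farthest to the right at 6.42 and CA12 the one farthest to the left at -3.75, and the others lie within the body of the distribution.

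The glucose transporters stood at the top of the list. SLC2A3 (ENSG00000059804, chromosome 12, 7919230 to 7936275, minus strand, GRCh38), the high-affinity transporter GLUT3, was read at 213, 207 and 209 FPKM under the overexpression label and at 1.62, 1.28 and 1.49 FPKM under the control label. All 3 overexpression-labelled libraries were high, and the 143-fold difference (limma log2 fold change 6.42 with an SE of 0.064 and an adjusted p = 8.87e-09) rested on 69159 and 450 reads. SLC2A1 (ENSG00000117394, chromosome 1, 42925375 to 42959176, minus strand), the widely expressed GLUT1, stood at 348, 343 and 348 FPKM against 52.6, 47.1 and 43.8 FPKM. Again no library overlapped with the other group, with a 7.24-fold higher level under the overexpression label (limma log2 fold change 2.83 with an SE of 0.071 and an adjusted p = 1.68e-07). Together both genes gave 556 ± 5.7 and 49.3 ± 4.5 FPKM (SD, n = 3 each). SLC2A3 supplied 38.0%, 37.6% and 37.5% of that sum under the overexpression label and 3.00%, 2.65% and 3.30% under the control label. SLC2A14, a near-identical neighbour with which SLC2A3 may share reads, had 291 and 2 reads, far fewer than SLC2A3. SLC2A1-AS1, which lies opposite SLC2A1, had 605 and 99 reads.

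Neither lactate transporter gene on the list passed the threshold. SLC16A1, the transporter MCT1, was read at 52.7, 50.01 and 51.7 FPKM under the overexpression label and 53.7, 47.5 and 54.0 FPKM under the control label, so the groups overlapped (limma log2 fold change 0.00 with an SE of 0.064 and an adjusted p = 0.948). SLC16A3, the export form MCT4, stood at 25.6, 26.7 and 25.5 against 31.3, 31.7 and 26.5 FPKM, with overlap through control-labelled replicate 3 (limma log2 fold change -0.19 with an SE of 0.077 and an adjusted p = 0.0581). Without that library SLC16A3 was lower at -0.27 (adjusted p = 1.39e-03), and with array weights at -0.26 (adjusted p = 7.6e-05). The fit with array weights, here and below, gave a warning that its weights had not converged. The sum of both transporters was 77.4 ± 0.82 and 81.6 ± 3.0 FPKM (SD, n = 3 each).

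Of the 18 enzymes from hexokinase to lactate dehydrogenase, 12 were lower, 3 were higher and 3 did not pass. Among all genes 39.3% were lower and 37.5% higher, and 76.8% passed in either direction. Their median log2 fold change was -0.57. Their FPKM added up to 0.643% ± 0.0034 of the FPKM of a library under the overexpression label and to 0.744% ± 0.027 under the control label (SD, n = 3 each), without overlap (exact two-sided permutation test, p = 0.1, the smallest that 3 against 3 libraries can give). With transporters and all other members the sum was 0.910% ± 0.0075 and 0.876% ± 0.020.

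Entry enzymes of the pathway were lower throughout. Hexokinase traps glucose as its phosphate, and HK2, its inducible form, was read at 8.51, 8.33 and 9.19 FPKM against 21.6, 18.3 and 17.2 FPKM (2.20-fold lower under the overexpression label, limma adjusted p = 4.87e-05). HK1, the housekeeping form, stood at 14.3, 14.7 and 14.5 FPKM against 23.5, 22.1 and 23.7 FPKM (1.59-fold lower, limma adjusted p = 3.09e-05). For both genes every overexpression-labelled library lay below every control-labelled one. GPI, which makes fructose 6-phosphate, was 1.32-fold lower (limma adjusted p = 1.55e-04).

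Phosphofructokinase commits sugar to glycolysis, and its 3 subunit genes were all lower. PFKM, the muscle subunit, was read at 12.3, 12.4 and 11.9 FPKM against 41.7, 38.0 and 43.6 FPKM (3.38-fold lower, limma log2 fold change -1.68 with an SE of 0.063 and an adjusted p = 9.86e-07). PFKP, the platelet subunit, stood at 23.4, 22.2 and 23.0 FPKM against 70.8, 65.1 and 70.4 FPKM (3.01-fold lower, limma adjusted p = 6.62e-07). PFKL, the liver subunit, was 19.0 ± 0.25 and 24.4 ± 3.0 FPKM (limma log2 fold change -0.34 with an SE of 0.091 and an adjusted p = 0.0129). That last call was lost after quantile normalization (-0.24, adjusted p = 0.053), with FPKM worked out anew on read totals (-0.23, adjusted p = 0.0697) and with voom (-0.24, adjusted p = 0.0509). The subunits made 54.1 ± 0.43 and 134 ± 3.9 FPKM together. Within that sum PFKL supplied 35.2% and 18.2%, PFKP 42.3% and 51.2%, and PFKM 22.5% and 30.6% on average in the overexpression-labelled and control-labelled libraries.

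The bifunctional PFKFB enzymes make and remove fructose 2,6-bisphosphate, the activator of phosphofructokinase, and their genes went in opposite directions. PFKFB3, the form with the strongest kinase activity, was read at 6.34, 5.55 and 6.08 FPKM against 13.4, 11.6 and 16.1 FPKM (2.28-fold lower, limma adjusted p = 1.74e-04). PFKFB4 stood at 3.89, 3.65 and 4.06 FPKM against 0.904, 1.01 and 1.08 FPKM (3.88-fold higher, limma adjusted p = 6.12e-06). Neither gene overlapped between groups. PFKFB4 supplied 39.3% ± 1.1 of their sum under the overexpression label and 6.88% ± 0.99 under the control label.

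From the triose phosphates to pyruvate the directions were mixed. TPI1, which interconverts the triose phosphates, was read at 259, 250.4 and 246 FPKM against 194, 192 and 188 FPKM (1.32-fold higher, limma adjusted p = 1.95e-04). PKM, the pyruvate kinase gene that makes the last ATP of the pathway, stood at 198, 191 and 191 FPKM against 137, 138 and 117 FPKM (1.48-fold higher, limma adjusted p = 4.44e-04). Both were higher in every overexpression-labelled library. PGK1, phosphoglycerate kinase, was 66.0 ± 1.4 and 111.0 ± 8.8 FPKM (1.68-fold lower, limma adjusted p = 6.37e-05), and PGAM1, phosphoglycerate mutase, 86.6 ± 2.8 and 123 ± 15 FPKM (1.42-fold lower, limma adjusted p = 2.1e-03). The steps between fructose bisphosphate and pyruvate thus did not move together.

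GAPDH, often used as a reference gene, was the most abundant member, at 707, 697 and 688 FPKM against 693, 712 and 708 FPKM. The groups overlapped, and the limma log2 fold change was -0.01 with an SE of 0.044 (adjusted p = 0.776). Its sign followed the scaling, at 0.093 with FPKM worked out anew on read totals and 0.46 (adjusted p = 1.71e-03) after quantile normalization.

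Enolase genes differed in direction. ENO1, the ubiquitous enolase, was read at 303, 288 and 300.3 FPKM against 477, 478 and 466 FPKM (1.59-fold lower, limma adjusted p = 1.4e-05). ENO2, the form of neurons and neuroendocrine cells, stood at 22.3, 21.4 and 20.5 FPKM against 12.2, 11.3 and 14.8 FPKM (1.68-fold higher, limma adjusted p = 5.52e-04). ENO3, the muscle form, was at 5.76, 6.71 and 6.40 FPKM against 24.4, 23.7 and 25.1 FPKM (3.87-fold lower, limma adjusted p = 8.24e-07). The groups did not overlap for any of the 3. ENO1 supplied 91.5% and 92.7% of the family on average, ENO2 6.59% and 2.50%, and ENO3 1.94% and 4.77%. PFN1, on the opposite strand, shares 111 exon bases with ENO3 and had 39152 and 25133 reads.

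Aldolase, which cleaves fructose bisphosphate, gave low levels in both groups. ALDOC, the brain form, was read at 3.27, 3.04 and 2.98 FPKM against 12.1, 13.7 and 12.3 FPKM (4.11-fold lower, limma adjusted p = 1.14e-06), without overlap. ALDOA, the main form of muscle and most dividing cells, stood at 2.33, 2.11 and 2.24 FPKM against 2.26, 2.33 and 2.67 FPKM, which overlapped (limma adjusted p = 0.355). TPI1, the next enzyme, was at 252 and 192 FPKM on average. In GENCODE release 29, 1657 of the 3916 exon bases of ALDOA (42.3%) also belong to the same-strand gene AC093512.2, which had 120 and 192 reads against 467 and 473 for ALDOA. How reads in shared exons were counted is not given in the sources used here, and their part in the level of ALDOA was not tested.

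Lactate dehydrogenase is built from LDHA and LDHB subunits, which favour lactate and pyruvate formation respectively. LDHA was read at 127, 122 and 122 FPKM against 123, 134 and 98.6 FPKM, with overlap (limma log2 fold change 0.07 with an SE of 0.11 and an adjusted p = 0.573), and its sign turned without control-labelled replicate 3 (-0.054). LDHB stood at 15.5, 15.4 and 14.7 FPKM against 29.1, 26.5 and 28.7 FPKM (1.85-fold lower, limma adjusted p = 1.38e-05). LDHB supplied 10.9% ± 0.24 of the sum under the overexpression label and 19.4% ± 3.1 under the control label. AC010197.2, a same-strand gene with 0 reads in both groups, covers 33.4% of the exon bases of LDHB, and its part in the share was not tested.

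Pyruvate dehydrogenase kinases switch off the entry of pyruvate into the citric acid cycle, and PDK1 is a textbook HIF target. PDK1 was read at 0.846, 0.941 and 0.903 FPKM against 1.56, 1.57 and 1.34 FPKM (1.66-fold lower, limma adjusted p = 3.35e-03). PDK3 stood at 3.10, 2.40 and 2.59 FPKM against 0.781, 0.957 and 0.857 FPKM (3.12-fold higher, limma adjusted p = 8.71e-05). All libraries of a group lay on one side, and PDK3 supplied 74.9% ± 3.4 of their sum under the overexpression label and 36.8% ± 3.0 under the control label.

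**Figure D3:**
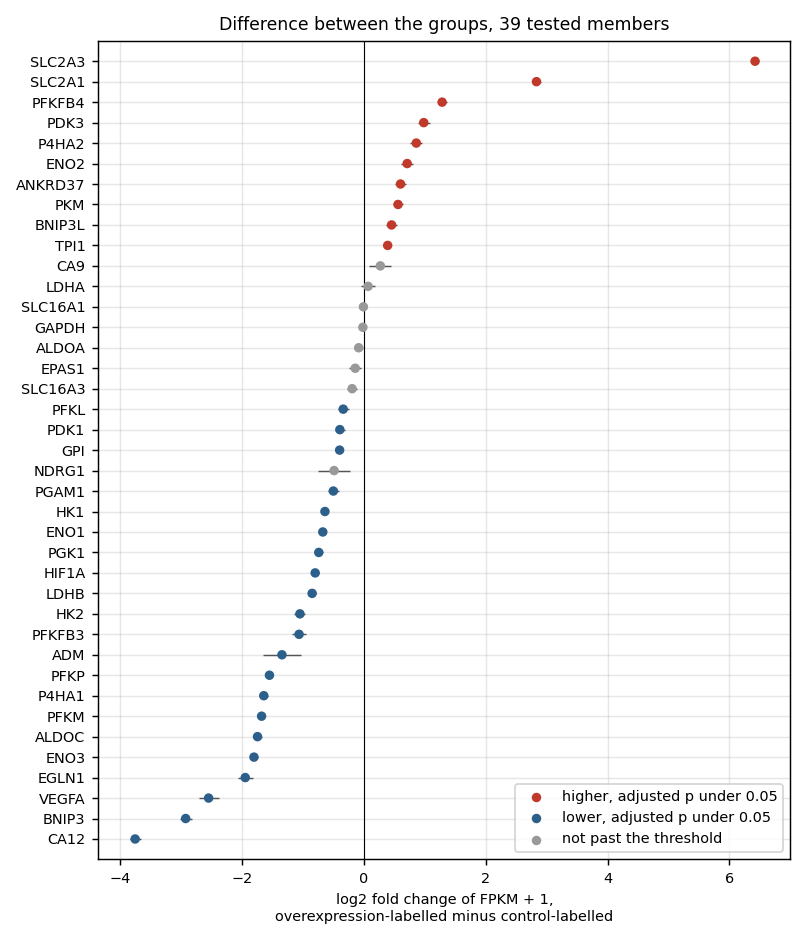
Log2 fold change of FPKM + 1 for the 39 tested members, ordered by value, with bars of 1 SE from limma. Red points passed an adjusted p of 0.05 and were higher under the overexpression label (10 genes), blue points were lower (21 genes), and grey points did not pass.

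The HIF alpha subunits and the enzymes that mark them gave the following levels. HIF1A (ENSG00000100644, chromosome 14, 61695513 to 61748259, plus strand), the widely expressed alpha subunit, was read at 21.4, 22.6 and 23.4 FPKM against 41.9, 39.4 and 38.0 FPKM. The groups did not overlap, and the level was 1.77-fold lower under the overexpression label (limma log2 fold change -0.80 with an SE of 0.059 and an adjusted p = 2.33e-05). EPAS1, which encodes HIF-2 alpha, stood at 39.97, 38.7 and 41.8 FPKM against 43.9, 39.1 and 50.6 FPKM, with overlap (limma adjusted p = 0.223). Without control-labelled replicate 2 EPAS1 was lower at -0.23 (adjusted p = 0.034), and with array weights at -0.13 (adjusted p = 9.44e-03). EPAS1 supplied 64.1% ± 1.0 of the alpha subunit FPKM under the overexpression label and 52.7% ± 3.9 under the control label.

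EGLN1, the main oxygen-sensing prolyl hydroxylase, was read at 6.59, 6.31 and 6.28 FPKM against 30.3, 30.6 and 22.2 FPKM (4.33-fold lower, limma log2 fold change -1.94 with an SE of 0.13 and an adjusted p = 1.14e-05). EGLN3, a hydroxylase that HIF induces, stood at 0.925, 0.963 and 0.852 FPKM against 0.367, 0.306 and 0.276 FPKM, and its mean was under the minimum for testing. The groups did not overlap for either gene, and the overexpression-labelled libraries were the low ones for EGLN1 and the high ones for EGLN3. With no minimum, EGLN3 was higher by 0.54 on the log2 scale (SE 0.072, limma adjusted p = 1.58e-03). EGLN1 remained the more abundant of both in each library, with EGLN3 at 12.5% ± 0.67 and 1.14% ± 0.13 of their sum. EGLN2 is not a member and was left out of that share. Named after its values were seen, it stood at 1.54 and 2.04 FPKM on average (limma adjusted p = 0.027), above EGLN3 in both groups.

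Of the 10 HIF targets outside glycolysis, 5 were lower, 3 were higher and 2 did not pass. Among all genes 39.3% were lower and 37.5% higher, and 76.8% passed in either direction. CA12 (ENSG00000074410, chromosome 15, 63321378 to 63382161, minus strand), a membrane carbonic anhydrase that buffers acid outside the cell, was read at 0.194, 0.0908 and 0.123 FPKM against 15.9, 14.1 and 12.9 FPKM. Of the 39 tested members CA12 had the most negative log2 fold change, its FPKM being 105-fold lower than in the control-labelled libraries (limma log2 fold change -3.75 with an SE of 0.091 and an adjusted p = 1.5e-07), on 53 and 5217 reads. CA9, its HIF-induced relative and a common hypoxia marker, stood at 1.12, 1.26 and 1.21 FPKM against 1.07, 1.14 and 0.358 FPKM, with overlap (limma adjusted p = 0.205). Without control-labelled replicate 3 the log2 fold change of CA9 was 0.064 (adjusted p = 0.49). It rested on 107 and 71 reads, and 38.5% of its exon bases are shared with ARHGEF39 on the opposite strand. In the control-labelled libraries CA12 made up 94.5% ± 2.5 of the FPKM of both genes, and in the others 10.2% ± 4.1.

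VEGFA (ENSG00000112715, chromosome 6, 43770184 to 43786487, plus strand), the main angiogenic growth factor, was read at 2.22, 1.82 and 2.09 FPKM against 17.3, 12.9 and 20.9 FPKM. No library overlapped, and the level was 8.33-fold lower under the overexpression label (limma log2 fold change -2.54 with an SE of 0.16 and an adjusted p = 1.11e-05). ADM, which encodes the vasodilator peptide adrenomedullin, stood at 4.36, 5.66 and 5.77 FPKM against 12.5, 10.2 and 25.02 FPKM (3.02-fold lower, limma adjusted p = 5.94e-03). NDRG1, a stress-induced gene, was at 14.5, 14.3 and 13.95 FPKM against 17.99, 14.3 and 32.4 FPKM, with overlap (limma log2 fold change -0.49 with an SE of 0.27 and an adjusted p = 0.137). Control-labelled replicate 3 was the highest library for all 3 genes. NDRG1 stood at -0.163 (adjusted p = 0.16) without that library. It was lower at -0.73 (adjusted p = 0.0283) without control-labelled replicate 2 and at -0.32 (adjusted p = 4.81e-03) with array weights.

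The mitophagy receptors BNIP3 and BNIP3L, which mark mitochondria for removal, differed in direction. BNIP3 (ENSG00000176171, chromosome 10, 131966455 to 131982013, minus strand), whose promoter with 6 core matches is printed above, was read at 0.511, 0.322 and 0.410 FPKM against 9.54, 8.67 and 11.0 FPKM. It was 23.5-fold lower under the overexpression label (limma log2 fold change -2.92 with an SE of 0.10 and an adjusted p = 6.68e-07), on 118 and 2587 reads. BNIP3L stood at 17.1, 16.5 and 17.8 FPKM against 12.8, 10.4 and 13.6 FPKM (1.40-fold higher, limma adjusted p = 4.34e-03). Every library of a group lay on the same side for both, and BNIP3 made up 2.36% ± 0.50 of their sum under the overexpression label and 44.3% ± 1.4 under the control label. The 39 genes annotated as BNIP3 pseudogenes had 92 and 87 reads in all, equal to 78% of the reads of BNIP3 under the overexpression label and 3.36% under the control label. PNMA2, on the opposite strand, shares 7.66% of the exon bases of BNIP3L. It had 1798 and 377 reads against 3946 and 2632 for BNIP3L, and its part in the level of BNIP3L was not tested.

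ANKRD37, a small HIF target with 3 core matches in the promoter printed above, was read at 1.39, 1.44 and 1.56 FPKM against 0.618, 0.505 and 0.741 FPKM (2.35-fold higher, limma adjusted p = 7.28e-04). UFSP2, on the opposite strand, shares 35.2% of its exon bases and had 749 and 248 reads against 202 and 80. The collagen prolyl hydroxylases, which hydroxylate procollagen for triple helix formation, parted. P4HA1 stood at 7.77, 7.70 and 7.13 FPKM against 24.8, 24.4 and 27.6 FPKM (3.40-fold lower, limma adjusted p = 1.33e-06). P4HA2 was at 10.2, 9.63 and 11.0 FPKM against 4.92, 4.64 and 6.12 FPKM (1.97-fold higher, limma adjusted p = 2.33e-04). P4HA2 supplied 57.7% ± 2.7 of their sum under the overexpression label and 16.9% ± 1.1 under the control label, so the more abundant subunit gene differed between the groups.

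Families here hold members of the list only. Shares within a family are taken inside each library and do not depend on how libraries are scaled to one another. Of 14 families compared, the share did not overlap between groups in 13 (80.1% of all tested genes did not overlap in level), the exception being the lactate transporters (33.5% ± 1.1 and 36.6% ± 3.6 for SLC16A3). Each of the 13 gave an exact two-sided permutation p of 0.1, the smallest possible with 3 against 3 libraries, and 0.108 after Benjamini-Hochberg adjustment over the 14, so the design cannot reach 0.05. In size the differences in those 13 ranged from 4.10 percentage points for ENO2 to -84.3 points for CA12. HK2 supplied 37.4% ± 1.3 and 45.1% ± 2.9 of the sum of HK1 and HK2, one of the smaller differences. HKDC1, which is not a member, stood at 1.10 and 46.3 FPKM and is not in that sum. In 3 of the 12 families of 2 genes the gene with the larger mean share was not the same in both groups. These were PDK1 with PDK3, CA9 with CA12 and P4HA1 with P4HA2. PDK2 (3.76 and 2.18 FPKM) and PDK4 (1.63 and 24.9 FPKM) are not members and were left out of the PDK share.

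**Figure D4:**
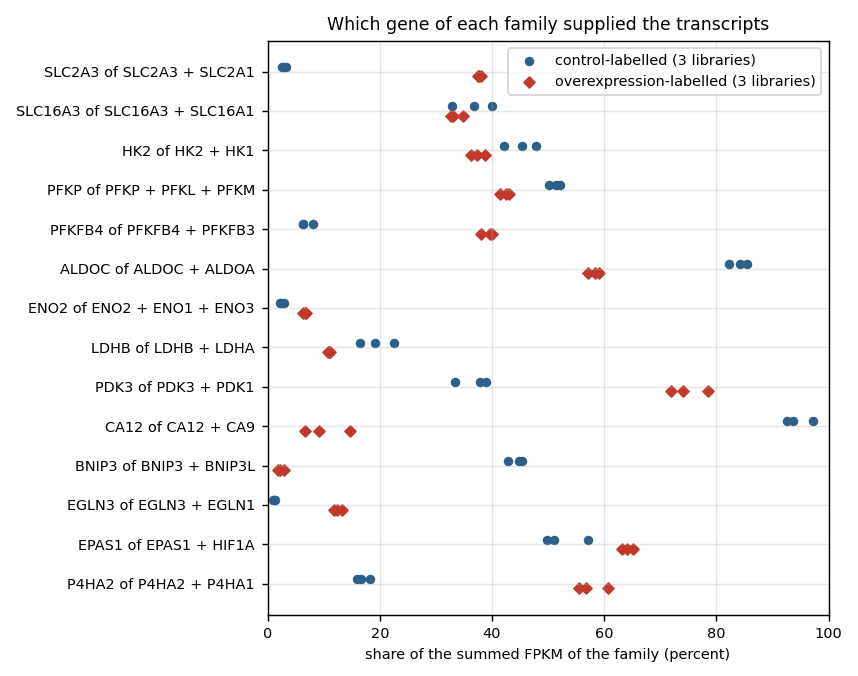
Share of the summed FPKM of a family held by the first gene named, in percent, for 14 families, with circles for control-labelled and diamonds for overexpression-labelled libraries. The 2 groups lie apart in every row except that of SLC16A3, and the gap is widest for CA12. Families hold members of the list only.

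A wider set of 56 other genes of glucose transport, glycolysis, galactose entry and pyruvate use held 32 that could be tested, of which 8 were higher and 15 lower (37.5% and 39.3% of all genes). The count of higher genes was 5 without overexpression-labelled replicate 1, 14 with no minimum level and 3 with a minimum mean of 5 FPKM. SLC2A10, the transporter GLUT10, was 5.02 ± 0.11 FPKM against 4 reads in the control-labelled libraries (limma adjusted p = 1.98e-07). SLC2A6 was 2.04-fold higher and FBP1, the fructose bisphosphatase of gluconeogenesis, 37.8-fold higher, the latter on 203 and 5 reads. Among the lower genes, HKDC1, a hexokinase domain gene, was read at 1.27, 1.17 and 0.854 FPKM against 41.2, 32.2 and 65.4 FPKM (42.2-fold lower, limma adjusted p = 5.54e-06). In the control-labelled libraries HKDC1 thus exceeded both HK1 and HK2 in FPKM. SLC2A13, a myo-inositol transporter, was 75.3-fold lower, the monocarboxylate transporter gene SLC16A7 183-fold lower and BPGM, the bisphosphoglycerate mutase, 3.32-fold lower. SLC2A13 had 52 and 3655 reads, and SLC16A7 had 16 and 2734.

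Genes around pyruvate dehydrogenase went both ways. PDK4, a starvation-induced kinase, was read at 1.98, 1.48 and 1.41 FPKM against 22.1, 28.9 and 23.7 FPKM (15.3-fold lower, limma adjusted p = 1.01e-06), while PDK2 was 1.72-fold higher. The phosphatases that reverse these kinases parted, PDP1 being 2.97-fold higher and PDP2, named after its values were seen, 3.34-fold lower (limma adjusted p = 2.25e-05), while their regulatory subunit gene PDPR was 1.96-fold higher. PC, pyruvate carboxylase, stood at 6.995 ± 0.31 and 32.9 ± 2.2 FPKM (4.70-fold lower, limma adjusted p = 4.6e-07). Among kinases of the complex PDK4 was the most abundant in the control-labelled libraries, and PDK2 in the others.

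Of 43 other genes of the HIF pathway, 33 could be tested, and 9 were higher and 18 lower (37.5% and 39.3% of all genes). ARNT, the partner of the alpha subunits, was read at 4.02, 3.798 and 3.74 FPKM against 15.6, 14.4 and 15.5 FPKM (3.93-fold lower, limma adjusted p = 5.88e-07). Its paralogue ARNT2 was 2.20 ± 0.16 and 0.039 ± 0.035 FPKM (limma adjusted p = 3.95e-06), on 912 and 15 reads. VHL, which ubiquitinates hydroxylated HIF alpha, stood at 11.3, 11.1 and 11.7 FPKM against 34.7, 31.4 and 35.0 FPKM (2.97-fold lower, limma adjusted p = 1.25e-06). HIF1AN, the asparaginyl hydroxylase that restrains HIF and named after its values were seen, was higher at 7.10 ± 0.12 and 6.03 ± 0.41 FPKM (limma adjusted p = 0.0208). The HIF machinery thus held genes that were lower, such as HIF1A and VHL, and genes that were higher, such as ARNT2.

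Among targets of that wider list, IGFBP3, which binds insulin-like growth factors, was read at 58.1, 56.8 and 58.8 FPKM against 23.6, 22.8 and 31.2 FPKM (2.24-fold higher, limma adjusted p = 1.1e-04). ZNF395 was 1.85-fold, the repressor BHLHE40 1.73-fold, the adenylate kinase AK4 1.62-fold and the disulfide oxidase ERO1A 1.51-fold higher. DDIT4, an inhibitor of mTORC1, was read at 6.78, 6.29 and 6.94 FPKM against 137, 118 and 112.5 FPKM (18.4-fold lower, limma adjusted p = 8.35e-08). HMOX1, the heme oxygenase, was 35.2-fold lower and varied among the control-labelled libraries, at 88.4, 41.0 and 164 FPKM. The collagen cross-linking genes PLOD2 and LOX were 48.3-fold and 30.5-fold lower, and PPP1R3C, a glycogen-targeting subunit, 30.8-fold lower. PLOD2 had 39 and 1753 reads, LOX 37 and 1050, and PPP1R3C 17 and 489. DDIT4 and HMOX1 also belong to the ATF4 and NRF2 responses, so they are not specific to HIF.

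**Figure D5:**
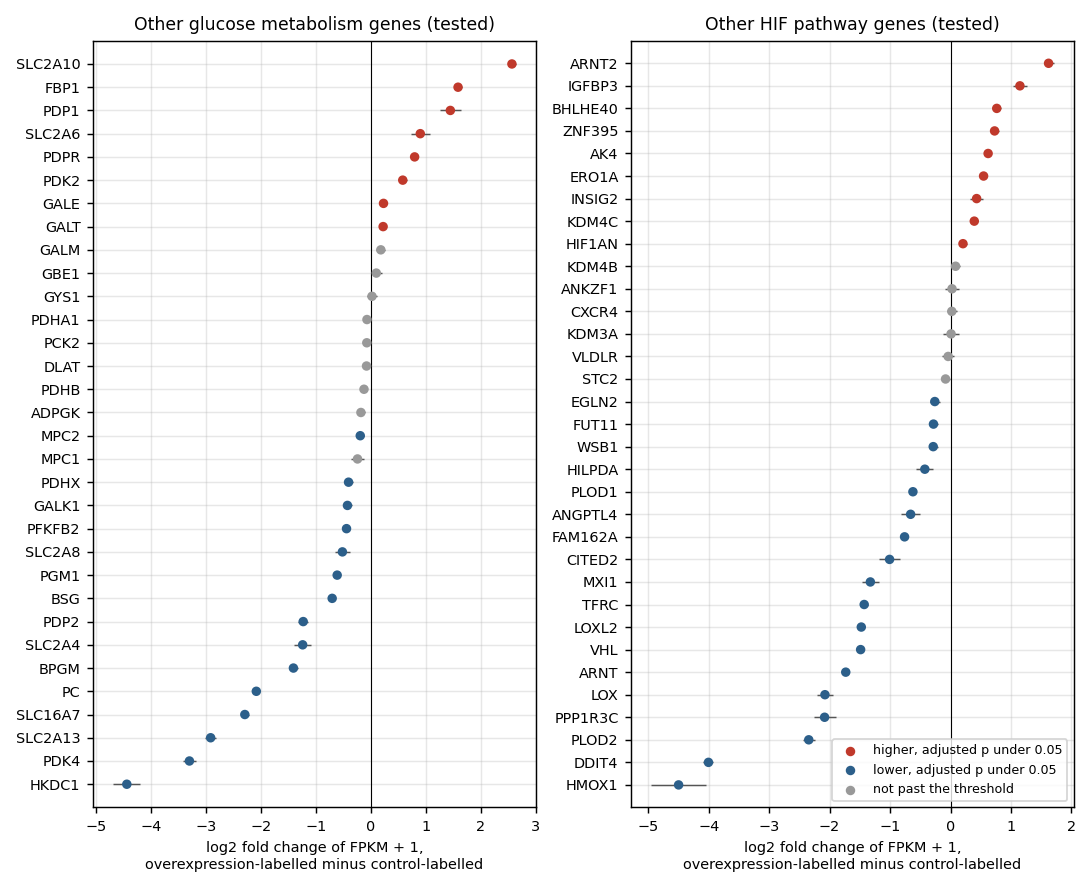
Log2 fold change of FPKM + 1 with bars of 1 SE for the tested genes of the 2 wider lists, glucose metabolism on the left and the HIF pathway on the right, coloured as passed and higher (red), passed and lower (blue) or not past the threshold (grey). HKDC1 and HMOX1 lie lowest, and SLC2A10 and ARNT2 highest.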

How the data were processed

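The authors deposited 1 table of FPKM per gene for the 6 libraries, with gene length. The unit comes from the table's name and values. Build mm10 is given per the submitters' processing notes, whereas all 58735 identifiers are human and match GENCODE release 29 of GRCh38 in symbol, start and end. Which aligner and counter were used is not given in the sources used here. FPKM times gene length was a whole multiple of 1 step (within 0.001) for 100% of values above 0, and the reads obtained so gave the totals and read numbers printed. Printed read numbers are sums over the 3 libraries of a group. The library size behind the FPKM was not the read total. It was 1.0385 to 1.0521 times that total under the overexpression label and 0.9582 to 0.9946 times under the control label.

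Groups were taken from the titles. Values of log2(FPKM + 1), a scale that understates changes of low genes, were fitted with limma 3.58.1 (R 4.3.3, variance trend on), keeping genes whose mean reached 1 FPKM, with Benjamini-Hochberg adjustment over all of them. Folds are ratios of mean FPKM. Alternatives changed the pseudocount, the minimum, the scaling, the variance model and the libraries used. For the array weights limma warned that the convergence tolerance was not reached, so p-values of that alternative are uncertain. Only the main limma fit was tested on simulated counts, in which most genes were unchanged, and the other steps were not. Named were all 40 members, DDX39B, the up to 6 genes per direction with the largest change past the threshold and no overlap in each wider list, and SLC2A14, ARNT and VHL. PDP2, HIF1AN and EGLN2 were named outside that rule, after their values were seen. AC093512.2, AC010197.2 and the other overlapping genes were named for their position. One gene of the wider HIF list is not reported here. The members and lists were chosen with earlier results of these data known.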

Additional observations from a re-analysis of the deposited data

How the results depend on the processing

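Counts of higher and lower members stayed within 1.5 times their value under the 17 alternatives, at 7 to 11 higher and 20 to 24 lower, and 32 of 39 tested members kept direction and side of the threshold wherever they were tested. The 26 other genes named by the rule above and with a test did so too. PDP2, HIF1AN and EGLN2 lie outside that rule and were not checked in this way. At the minimum of 5 FPKM or with an overexpression-labelled library left out, 6 of the members and 11 of the 26 others fell under the minimum at least once and gave no value there. With a minimum mean of 5 FPKM, 6218 of 7796 genes passed in place of 10726 of 13972, fewer genes being tested, and the wider glucose list had 3 higher genes, with no minimum 14, and 5 to 9 when 1 library was left out. The log2 fold change of SLC16A1 turned to 0.11 after quantile normalization, 0.10 on read totals and 0.11 with voom, and lay at -0.064 to 0.027 with 1 library left out. That of GAPDH turned to 0.46, 0.093 and 0.097 under the same 3 scalings and to 0.01 with array weights, and that of LDHA lay at -0.054 to 0.167 with 1 library left out, the lowest without control-labelled replicate 3. None of these passed except GAPDH after quantile normalization, and the cause was not tested. The median of all genes moved by 0.11 with voom and by at most 0.09 with the other scalings. Shares counted in reads, not per length, differed by 40.3 points for SLC2A3, -28.7 for ALDOC, 3.38 for ENO2, -4.82 for LDHB, 33.7 for PDK3, -66.1 for CA12 and -46.7 for BNIP3, as the genes of a family differ in length. Same-numbered libraries did not deviate together (r of -0.022 to 0.0075), and with the replicate number as a block 10506 genes passed, with 10 members higher and 21 lower. Among the members, depth limits CA12, CA9, ANKRD37, EGLN3 and BNIP3 most, with 53 to 118 reads over the 3 libraries of their lower group. Several named genes of the wider lists had fewer still in their lower group. They were SLC2A14 (2 reads), SLC2A10 (4), FBP1 (5), ARNT2 (15), SLC16A7 (16), PPP1R3C (17), LOX (37), PLOD2 (39) and SLC2A13 (52).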
